A study of Aedes aegypti with 5 samples.

Results

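Salivary gland transcripts of female *Aedes aegypti* taken 24 hours post feeding (hpf) were compared with those of unfed females, over all 433 genes of the 433 on the array. The comparison took its members from the array groups alone, so no measured value chose them. The mosquitoes were the Higgs white eye strain, kept on sugar water, all of the same age, with no earlier blood meal. Unfed and fed females alike were starved for 16 h, and the fed ones then engorged on a BALB/c mouse. The 24 hpf group was 1 RNA pool from 10 mosquitoes and the unfed group was 1 RNA pool for which no number of mosquitoes is given in the sources used here. Each pool was labelled with biotin and hybridized to 3 nylon membrane arrays. The pools of 1, 3 and 48 hpf, also with 3 arrays each, entered the shared estimate of the spread and the comparison of the fed groups.

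The paired salivary glands of a mosquito make the saliva that is injected while the insect probes and feeds. The saliva holds enzymes and binding proteins that counter clotting, platelet aggregation and vessel constriction in the host, sugar-digesting enzymes, mucins and antimicrobial peptides. A female empties much of it during a blood meal and the gland then makes new secretion, so transcripts of secreted proteins and of the protein-making machinery are of interest in the hours that follow.

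A value here is the normalized intensity of the deposited report, that is, a spot's signal over the average of the empty spots relative to that of a pair of reference spots, actin and ribosomal protein S5. On each array a signal that passed the mean of the empty spots by over 2 SD counts as above them. A gene was saturated where its raw intensity reached 60000 on a scale that ends at 65535. A ratio is the mean of the 3 arrays at 24 hpf over the mean of the 3 unfed arrays. Log2 differences come from limma on values raised to a floor of 0.1077 and so understate the change of a dim gene. Adjusted p-values are by Benjamini and Hochberg over 432 genes. The 3 arrays of a pool are technical, so every error and p-value measures the spread between arrays and a test compares RNA pools, not mosquitoes. In pooled tissue RNA, fewer cells of a type and less RNA per cell cannot be told apart.

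Of the 433 genes, 113 lay above the empty spots on all 6 arrays and 256 on 0 of 6. The unfed arrays had 132 to 146 genes above the empty spots and 48 to 64 saturated, and the 24 hpf arrays had 129 to 162 and 36 to 54. The ceiling bears on every ratio. The 35 genes saturated on all 6 arrays had the same raw intensity in both groups, with a median raw ratio of 1.00, yet their median normalized ratio was 1.47. It was 1.14 with S5 alone as the reference. Actin made up 14.1% to 38.9% of the reference on the unfed arrays and 1.76% to 7.63% on those of 24 hpf. S5 was itself saturated on 2 unfed arrays and 1 array of 24 hpf. The median log2 difference of the 123 detected genes not saturated in both groups was -0.00 as deposited. It was -0.30 with S5 alone, 0.48 with the array median as the reference and -0.06 after quantile normalization. Directions below were therefore checked under each of these scalings and with the ribosomal protein probes as the reference. The array median lay within the limit of the empty spots on each of the 6 arrays, at 0.0140 to 0.0475. That reference is thus a background level. Of the 4 ribosomal probes besides S5, 3 were saturated on all 6 arrays. The median log2 difference was -0.29 on that reference, so it is no check separate from S5 alone. Of the 15 salivary gland marker names on the array, among them apyrase, the D7 proteins, amylase and alpha-glucosidase, 14 lay above the empty spots on all 6 arrays. The 1 muscle name, myosin light chain, lay above them on 0 of 6. The 3 names matched by the midgut words, 2 of them labelled salivary, lay above them on all 6, among them large trypsin (AEA-876) at a mean of 0.41 unfed and 0.335 at 24 hpf. Of the 2 blood cell names, both prophenoloxidase activators, AF466614 lay above them on 0 unfed and 3 of the 24 hpf arrays and AET-5733 on 1 and 0. The part of such cells in the results was not tested. No fat body or mouse blood marker of the list was on the array.

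Angiopoietin-like protein (AE-6349), defensin A1 (S82860), a glycine rich secreted peptide (AET-4173) and I23Ma (AEA-233) were higher at 24 hpf than in unfed glands by limma, 4 of 432 genes or 0.926%. All but the glycine rich peptide belong to the immunity list. None passed as lower, 0% of the genes, against 15 lower and 19 higher where an unadjusted p under 0.05 was the limit. The adjustment included 218 genes at the floor on every array. Over the 158 detected genes alone, a filter set on these same arrays, limma without the block passed 5 as higher and 6 as lower. The 6 were AE-314, AE-329, AE-922, AE-212, AY590494 and AET-1428, and AE-352 joined the higher genes. Arrays of the same number deviated together, and with the array number as a block 54 genes passed as higher (12.5%) and 27 as lower (6.25%). Of the 54 higher genes, 35 were saturated in both groups, so no rise was measured for them. With the block and S5 alone as the reference 5 genes passed as higher and 27 as lower, with the array median 6 and 0, and after quantile normalization 36 and 41. Past both the block and the limits of 2-fold and 0.5-fold were 8 higher and 17 lower genes, all of them detected and none saturated in both groups. Each of these 25 kept its direction under all 4 other scalings. The S5, ribosomal and array median references multiply all genes of an array by 1 factor. Genes picked for a fold past the limits were thus unlikely to turn, so the kept directions add no separate support. With the block, 5 of the 8 and 11 of the 17 passed on S5 alone, 4 and 0 on the array median, and 8 and 17 after quantile normalization. Those lost on S5 alone were AEA-233, AE-352 and AE-296 among the higher genes, and AET-1428, AEA-562, AET-3925, AE-4139, AET-330 and AET-432 among the lower.

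By ratio alone, 25 genes (5.77%) stood at 2-fold or more and 73 (16.9%) at 0.5-fold or less. Only 15 and 24 of these were detected, that is, above the empty spots on 2 or more arrays of a group. Another 160 genes had no ratio, since their mean in 1 group or in both was not above that of the empty spots. Among the 123 detected genes not saturated in both groups, all 3 arrays of 24 hpf lay above all 3 unfed arrays for 16 (13%) and below them for 15 (12.2%).

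**Figure D1:**
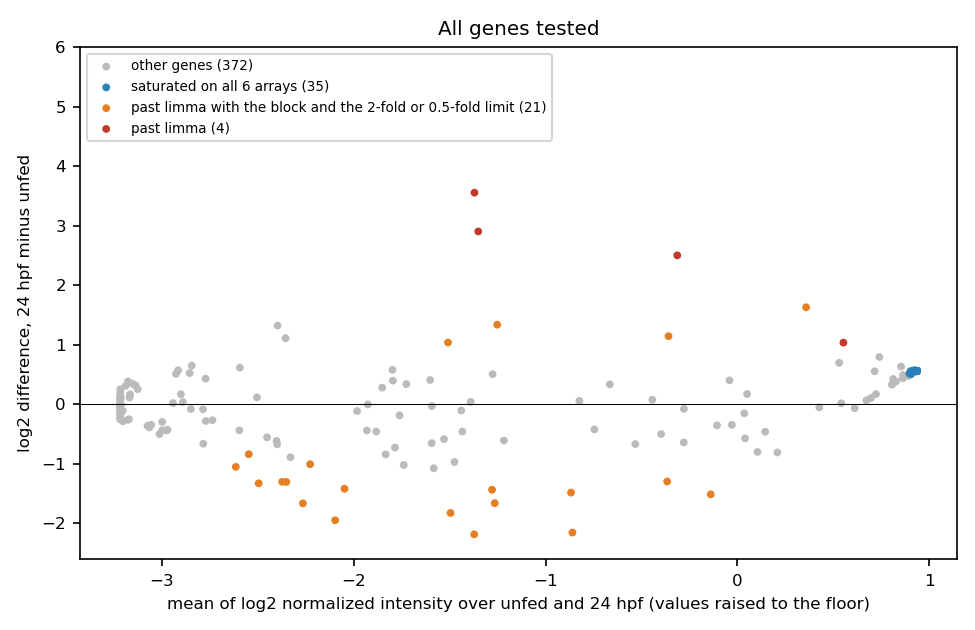
Log2 difference of 24 hpf minus unfed against the mean log2 normalized intensity of both groups, 1 point for each of the 432 genes tested, with colours for the 35 genes saturated on all 6 arrays, the 4 past limma and the 21 others past limma with the block and a fold limit. The saturated genes sit together at the right between 0.50 and 0.57, and AE-6349 stands highest at 3.55.

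The immunity list had 16 genes on the array, 13 of them detected and 4 saturated in both groups. Of the other 9 detected members, 6 passed as higher with the block and 1 as lower, and 3 passed as higher by limma without it. Of the 6, AEA-233 (adjusted p 0.127), AF466602 (0.684) and AE-189 (0.329) did not pass with the block on S5 alone. Over all 123 detected genes not saturated in both groups, 15.4% passed as higher and 22% as lower with the block. The median log2 difference of the 9 was 0.70, beside -0.00 for all 123, and 0.31 with S5 alone beside -0.30.

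Angiopoietin-like protein (AE-6349) belongs to the fibrinogen-related proteins, which in insects include recognition molecules for microbes. It read 0.123, 0.0448 and 0.119 on the unfed arrays 1 to 3 and 1.08, 1.38 and 1.71 on those of 24 hpf. The unfed arrays were near the empty spots, with 1 of 3 above them, and the 24 hpf arrays were all far higher, so the groups did not overlap. The ratio, against that dim group, was 14.5 and the log2 difference 3.55 ± 0.38 (SE, 3 against 3 arrays), with an adjusted p of 0.00042 by limma and 1.53e-05 with the block. The probe named as its splice variant (AE-154) was saturated on all 6 arrays and gave no fold.

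Defensin A1 (S82860) is a cysteine-rich antimicrobial peptide, known best from the fat body and active mainly on Gram-positive bacteria. The unfed arrays gave 0.163, 0.0712 and 0.174, and the 24 hpf arrays 0.794, 1.02 and 1.57. All of the 24 hpf arrays lay above the unfed ones, of which 1 of 3 was above the empty spots. Its ratio was 8.30 and its log2 difference 2.90 ± 0.35 (SE), with an adjusted p of 0.000716 by limma and 0.000218 with the block.

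I23Ma (AEA-233) read 0.827, 1.07 and 1.19 unfed and 2.25, 2.08 and 1.93 at 24 hpf, without overlap. It was saturated on 1 unfed and 2 of the 24 hpf arrays, so the ceiling limits the reading in both groups and its ratio of 2.03 is no exact fold. On S5 alone its log2 difference was 0.65. The adjusted p was 0.0101 by limma and 0.00343 with the block. The call by limma was lost when 24 hpf array 1 (adjusted p 0.0684) or array 2 (0.0535) was left out, and when S5 alone was the reference (0.559). The array median, the ribosomal probes, normexp background correction and a fit of the unfed and 24 hpf arrays alone lost it too (0.186 to 1).

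The bacteria responsive protein AgBR1 (AEA-871BRE) has a chitinase-like fold and was named in *Anopheles gambiae* for its response to bacteria. It stood at 0.385, 0.44 and 0.766 in unfed glands and at 0.893, 1.03 and 1.51 at 24 hpf. The lowest 24 hpf array was above the highest unfed one. The ratio was 2.16 and the log2 difference 1.14 ± 0.42 (SE), with an adjusted p of 0.401 by limma and 0.000842 with the block.

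Other members were chosen for mention after their values were seen. Gambicin (AF466602), a mosquito antimicrobial peptide, read 1.04, 1.2 and 1.16 unfed and 1.8, 1.85 and 1.86 at 24 hpf, a ratio of 1.62 with 1 saturated array in each group. It passed with the block (adjusted p 0.0183) but not by limma without it (0.152) or with the block on S5 alone (0.684). The salivary C-type lectin AE-189, of a family that binds sugars, passed with the block too (0.00199) but was saturated on 2 unfed and all 24 hpf arrays, so its ratio of 1.55 is no measured fold. The peptidoglycan recognition protein AE-7210, which binds bacterial cell walls, went the other way. Its arrays read 0.291, 0.304 and 0.659 unfed and 0.137, 0.139 and 0.369 at 24 hpf. The groups overlapped while each same-numbered 24 hpf array was lower. The ratio was 0.514, with an adjusted p of 0.533 by limma and 0.00155 with the block.

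**Figure D2:**
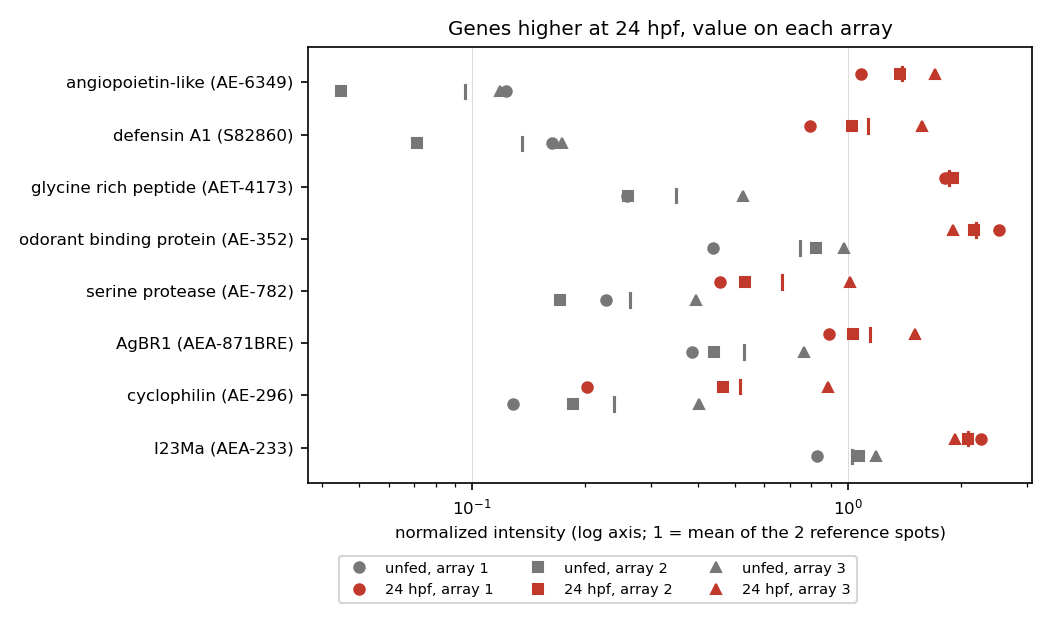
Normalized intensity (log axis) on each array for the 8 genes past the block and the 2-fold limit, with grey for unfed, red for 24 hpf, 1 marker shape per array number and a vertical tick at each group mean. For 7 of the 8 genes every 24 hpf array lies above every unfed array, and the exception is the cyclophilin AE-296.

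Outside the immunity list, a glycine rich salivary peptide, an odorant binding protein, a serine protease and a cyclophilin were higher at 24 hpf. The glycine rich peptide (AET-4173) is a secreted product of unknown function. It read 0.258, 0.259 and 0.527 unfed and 1.81, 1.91 and 1.85 at 24 hpf. The 24 hpf arrays were close together in normalized value, 1 of them saturated, and far above the unfed ones. Its ratio was 5.33 and its log2 difference 2.50 ± 0.31 (SE), with an adjusted p of 0.000716 by limma and 0.000114 with the block. The calls of AE-6349, S82860 and AET-4173 by limma held with any 1 of the 6 arrays left out. That of AET-4173 was lost with the array median as the reference (0.129) and with normexp (0.0694).

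Odorant binding proteins are small carriers of hydrophobic ligands, and the D7 proteins of saliva, which bind biogenic amines and eicosanoids of the host, are distant relatives of them. The odorant binding protein AE-352 read 0.438, 0.822 and 0.979 unfed and 2.53, 2.17 and 1.9 at 24 hpf. The groups stood well apart, and 2 of the 24 hpf arrays were saturated. The ratio of 2.95 had a log2 difference of 1.63 ± 0.47 (SE), with an adjusted p of 0.152 by limma and 0.00734 with the block, which became 0.0897 with the block on S5 alone. The list of odorant binding and D7 proteins had 11 genes, 8 of them detected and 2 saturated in both groups. Of the other 6, 2 passed as higher and 0 as lower with the block, beside 15.4% and 22% of all 123, and by limma without the block 0 passed in either direction, with 2 higher at an unadjusted p under 0.05. Beside AE-352 the gene that passed was D7s1 (AY951937, 0.0335 with the block), which was saturated on 3 unfed arrays and 2 of 24 hpf and so had no measured rise. The median log2 difference of the 6 was 0.18, or -0.15 with S5 alone. The short D7 protein D7s2 (AF420273) read 1.64, 1.52 and 1.21 unfed, with 2 saturated arrays, and 0.441, 0.902 and 1.41 at 24 hpf. The groups overlapped and the ratio of 0.630 did not pass (adjusted p 0.401 by limma, 0.156 with the block).

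Serine proteases of saliva and haemolymph include enzymes of clotting and of melanization cascades. The serine protease AE-782 read 0.227, 0.172 and 0.394 unfed and 0.457, 0.532 and 1.02 at 24 hpf, all above the unfed arrays. Its ratio was 2.53, with an adjusted p of 0.401 by limma and 0.00155 with the block. With normexp background correction the log2 difference was -0.06 (adjusted p 1 by limma). Another serine protease, AEA-562, was lower, and its 24 hpf arrays were all within the limit of the empty spots. It read 0.161, 0.166 and 0.417 unfed and 0.0727, 0.039 and 0.1 at 24 hpf, which is at least 2.88-fold lower (adjusted p 0.152 by limma, 0.0102 with the block). In such a bound the brighter group's mean log2 value is set against a dim group whose arrays each count no less than their weakest signal that passed the empty spots. The call with the block was lost without 24 hpf array 3 (0.0533). The putative serine protease AF466600 passed as higher with the block (0.0217 against 0.152) but not with the block on S5 alone (0.684). With 2 saturated arrays in each group, its ratio of 1.74 is no exact fold. Over the 6 detected proteases not saturated in both groups the median log2 difference was 0.36, or 0.09 with S5 alone.

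The cyclophilin isoform AE-296 is a prolyl isomerase, an enzyme that helps proteins fold. It read 0.128, 0.186 and 0.403 unfed and 0.202, 0.464 and 0.886 at 24 hpf. The ranges overlapped, and the 24 hpf array was higher at each array number. The ratio was 2.16, with an adjusted p of 0.619 by limma and 0.00638 with the block.

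With the block, 3 mucins were lower at 24 hpf. Mucins are heavily glycosylated proteins that coat and lubricate ducts and saliva. The list had 12 genes, 9 of them detected and 1 saturated in both groups. Of the other 8, 3 passed as lower and 0 as higher with the block, beside 22% and 15.4% of all 123, and 0 in either direction by limma without it. The saturated member passed as higher with the block, with no measured rise. By an unadjusted p under 0.05, 3 members were lower and 1 was higher. The median log2 difference of the 8 was -0.25, or -0.61 with S5 alone and 0.46 with the array median, beside 0.48 for all 123.

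The putative mucin AE-329 read 0.623, 0.72 and 1.01 unfed and 0.128, 0.114 and 0.329 at 24 hpf. Array 3 was the highest in both groups, and the groups did not overlap. The ratio was 0.243 and the log2 difference -2.18 ± 0.50 (SE), with an adjusted p of 0.0735 by limma and 0.000289 with the block. It passed limma without the block when 24 hpf array 3 was left out (0.0219).

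The possible mucin AE-922 read 0.562, 0.644 and 0.971 unfed and 0.183, 0.165 and 0.368 at 24 hpf, again apart, with a ratio of 0.329. Its adjusted p was 0.152 by limma and 0.000289 with the block. The possible mucin AET-6286 read 0.347, 0.295 and 0.599 unfed and 0.133, 0.0676 and 0.224 at 24 hpf. It too stood apart, at a ratio of 0.342, with an adjusted p of 0.324 by limma and 2.82e-05 with the block. The hypothetical MTT rich mucin AE-10854 lay above the empty spots on 1 unfed array and 0 of 24 hpf, so no fold is given. Its log2 difference was -0.39, with an adjusted p of 0.853 by limma and 0.479 with the block. Members that did not pass included a mucin-like peritrophin (AE-466), of a family named for chitin-binding proteins of the gut lining. Its ratio was 1.45 with overlapping groups (adjusted p 1 by limma, 0.272 with the block).

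**Figure D3:**
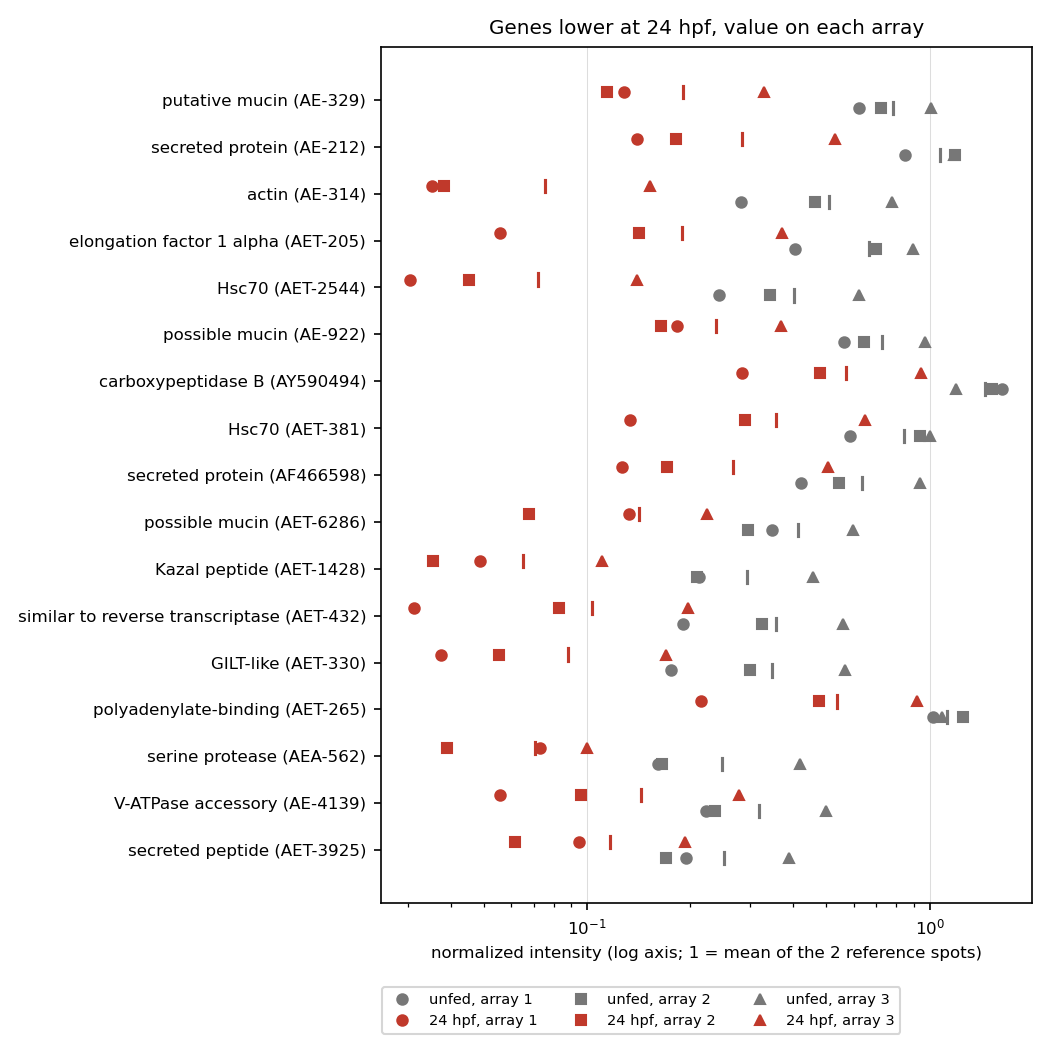
Normalized intensity (log axis) on each array for the 17 genes past the block and the 0.5-fold limit, with grey for unfed, red for 24 hpf, 1 marker shape per array number and a vertical tick at each group mean. Array 3 is the highest 24 hpf array for all 17 genes, and for 12 of them the groups do not overlap.

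Among secreted proteins of unknown function, 39 genes were on the array, 33 detected and 14 saturated in both groups. Of the other 19, 3 passed as higher and 5 as lower with the block, shares near the 15.4% and 22% of all 123, and 1 as higher and 0 as lower by limma without it. The median log2 difference of the 19 was -0.08, or 0.52 with the array median. AE-212 read 0.849, 1.19 and 1.18 unfed and 0.14, 0.182 and 0.528 at 24 hpf, without overlap and with 1 unfed array saturated. The ratio was 0.264 and the log2 difference -2.16 ± 0.63 (SE), with an adjusted p of 0.152 by limma and 0.00114 with the block. AF466598 read 0.421, 0.546 and 0.938 unfed and 0.126, 0.171 and 0.506 at 24 hpf. Array 3 of 24 hpf reached into the unfed range, and the ratio was 0.421 (adjusted p 0.401 by limma, 0.00155 with the block). The secreted peptide AET-3925, at a ratio of 0.465, passed with the block (0.0185) but not without unfed array 3 (0.0946) or without 24 hpf array 1 (0.0865) or 2 (0.0543).

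Among enzymes and inhibitors that may act on proteins, carboxypeptidase B (AY590494), which removes basic residues from the end of a peptide, was high in unfed glands. It read 1.63, 1.52 and 1.2 there, with 2 arrays saturated, and 0.283, 0.48 and 0.942 at 24 hpf. The groups did not overlap and the ratio was 0.392, with an adjusted p of 0.152 by limma and 0.00826 with the block. Without 24 hpf array 3 it passed limma as well (0.0271). The Kazal domain peptide AET-1428, of a family of serine protease inhibitors, read 0.212, 0.21 and 0.456 unfed and 0.0488, 0.0356 and 0.111 at 24 hpf. It was not above the empty spots on any 24 hpf array and was at least 3.52-fold lower (adjusted p 0.109 by limma, 0.0034 with the block).

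Actin (AE-314), the structural protein of microfilaments and 1 of the reference spots, read 0.281, 0.465 and 0.779 unfed and 0.0352, 0.0383 and 0.153 at 24 hpf. All 24 hpf arrays were lower than all unfed ones, and 1 of the 3 was above the empty spots. The ratio was 0.148 and the log2 difference -1.95 ± 0.43 (SE), with an adjusted p of 0.0647 by limma, 0.0304 without unfed array 1 and 0.000582 with the block. The other reference, S5 (AE-198A), is tied to actin by the scaling, since the mean of the pair is fixed on each array, and was not tested. Alpha tubulin (AET-2915), the protein of microtubules, which was chosen for mention after its values were seen, had a ratio of 1.00. It read 0.531, 0.906 and 1.03 unfed and 0.425, 0.79 and 1.26 at 24 hpf, with overlap.

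Of 16 translation factors 4 were detected, with a median log2 difference of -0.63, beside -0.00 for all 123. With the array median it was -0.04, beside 0.48. With the block 2 of the 4 passed as lower, beside 22% of all 123, a share that so few members cannot be set apart from. By limma without it 0 passed, with 1 lower at an unadjusted p under 0.05. Elongation factor 1 alpha (AET-205), a carrier of charged tRNAs to the ribosome, read 0.404, 0.698 and 0.893 unfed and 0.0556, 0.142 and 0.371 at 24 hpf. The highest 24 hpf array was just under the lowest unfed one. The ratio was 0.285, with an adjusted p of 0.401 by limma and 0.000289 with the block. The initiation factor 3 subunit g (AET-545) had a ratio of 0.544 and passed with the block (0.00373). Elongation factor 2 (AY064104), which moves the ribosome along the message, had a ratio of 0.823 and did not pass (0.133 with the block), and its log2 difference was 0.28 with the array median. The polyadenylate-binding protein (AET-265), which coats the tail of mRNAs, read 1.02, 1.25 and 1.09 unfed and 0.215, 0.475 and 0.92 at 24 hpf. It was lower without overlap, at a ratio of 0.479, and passed with the block (0.0103) but not when 24 hpf array 1 was left out (0.0563). Ribosomal proteins gave little to compare. Of their 4 probes 3 were saturated in both groups, and S4 (AE-303) had a ratio of 0.771 (adjusted p 0.064 with the block) and a log2 difference of 0.20 with the array median.

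Of 15 chaperones and folding enzymes 6 were detected, and 3 passed as lower and 1, the cyclophilin AE-296, as higher with the block, beside 22% and 15.4% of all 123. None passed by limma without it, with 2 lower at an unadjusted p under 0.05. Both probes for Hsc70, a constitutive chaperone that keeps new and unfolded proteins soluble, were lower. AET-2544 read 0.242, 0.342 and 0.623 unfed and 0.0305, 0.0452 and 0.14 at 24 hpf, a ratio of 0.179 without overlap (adjusted p 0.401 by limma, 0.00153 with the block). Its 24 hpf arrays 1 and 3 were not above the empty spots (limits 0.0731 and 0.144), so the ratio is against a dim group. AET-381 read 0.584, 0.938 and 1 unfed and 0.134, 0.289 and 0.649 at 24 hpf. Here array 3 of 24 hpf overlapped the unfed range, and the ratio was 0.425 (0.401 by limma, 0.00364 with the block). Cross-hybridization between the transcripts of this family was not tested. Protein disulfide isomerase (AET-2353), which forms disulfide bonds in the endoplasmic reticulum, had a ratio of 0.634 and passed with the block (0.00364).

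The secretory pathway list had 24 genes, of which 4 were detected and 1, a signal peptidase subunit (AE-284) at a ratio of 0.734, passed as lower with the block (0.0125). With the array median its log2 difference was 0.09. Of 9 vacuolar ATPase genes, which code for a proton pump of internal membranes, 5 were detected and the accessory subunit Ac45 (AE-4139) passed as lower with the block (0.000808) at a ratio of 0.450. The median log2 difference of the 5 was 0.12, and 1 call in so few members is near the 22% of all 123. Both lists had 0 calls by limma without the block and 0 members at an unadjusted p under 0.05. A gene similar to gamma-interferon inducible lysosomal thiol reductase (AET-330), an enzyme that reduces disulfides in lysosomes of vertebrates, read 0.175, 0.299 and 0.565 unfed and 0.0375, 0.0555 and 0.17 at 24 hpf. All 24 hpf arrays were lower, the nearest pair by a small margin, and the ratio was 0.253 (0.401 by limma, 0.0034 with the block). A reverse transcriptase-like gene (AET-432) completed the 17 lower genes, at a ratio of 0.290 with overlap (0.00155 with the block). With the block, 14 of the 17 lower and all 8 higher genes passed in each of the 6 fits without 1 array.

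**Figure D4:**
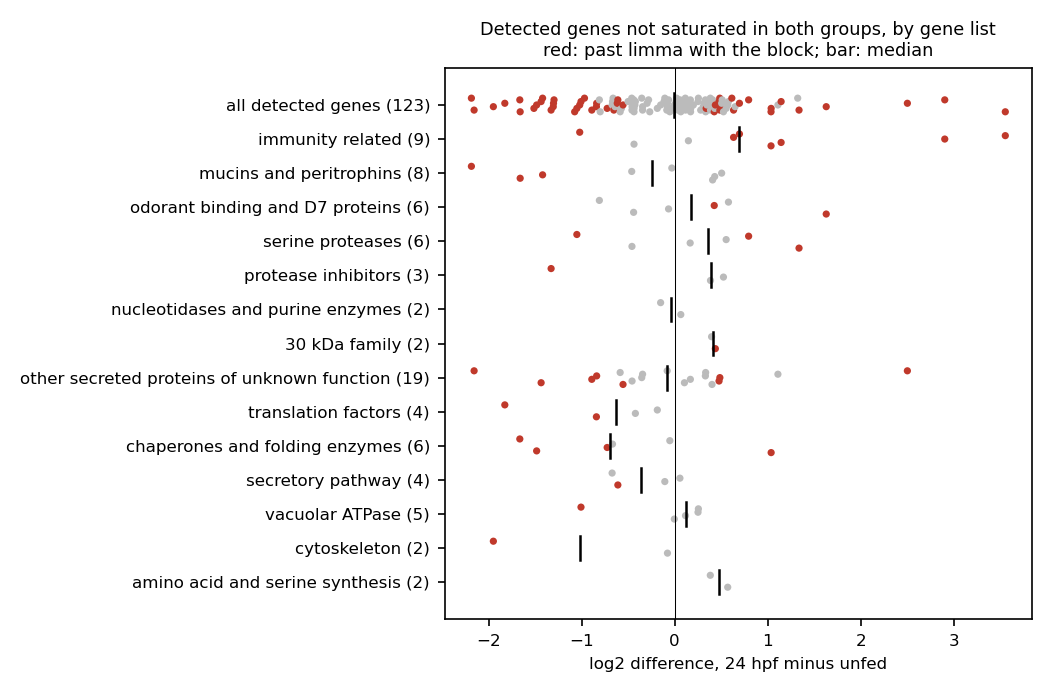
Log2 difference of 24 hpf minus unfed for each detected gene not saturated in both groups, with all 123 in the top row, 1 row per gene list below it, a bar at each median and red for genes past limma with the block. The median is 0.70 for the immunity list and -0.70 for the chaperones and folding enzymes, and each of these lists has members on either side of 0.

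Lists with little signal were mitochondrial proteins, oxidant defence and apoptosis, with 0 detected of 8, 11 and 2 genes. The proteasome and ubiquitin list had 1 detected of 15. Sugar digestion had 2 of 2 genes saturated in both groups. Of 4 genes of the 30 kDa family, which includes an inhibitor of collagen-induced platelet aggregation, 2 were saturated in both groups and 1 of the others passed as higher with the block (AE-260, 0.0319), with 3 unfed arrays and 2 of 24 hpf saturated and a log2 difference of -0.07 after quantile normalization. Of 4 nucleotidases and purine enzymes 2 were saturated in both groups, among them the salivary apyrase (L12389), an enzyme that degrades ATP and ADP, and the other 2 did not pass.

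Some of the highest quotients came from genes with 0 of 3 unfed arrays above the empty spots. Phosphoserine aminotransferase (AE-3793) and D-3-phosphoglycerate dehydrogenase (AET-3626) are neighbouring enzymes of serine synthesis. The former read 0.0235, -0.00751 and -0.00487 unfed and 0.0538, 0.12 and 0.317 at 24 hpf. Its quotient of 44.1 rests on an unfed mean near the level of the empty spots, and the bound on the fold was under 1, so no fold is given (adjusted p 1 by limma, 0.625 with the block). AET-3626, with a quotient of 6.45, gave no fold either. Selenophosphate synthetase (AET-2690), which makes the selenium donor for selenocysteine, read 0.0449, -0.00156 and 0.0148 unfed and 0.118, 0.266 and 0.622 at 24 hpf. All 24 hpf arrays were above the empty spots and no unfed array was, at least 1.98-fold higher, with an adjusted p of 0.401 by limma and 0.0603 with the block. At the other end kynurenine formamidase (AET-12468), an enzyme of tryptophan breakdown, was at least 1.59-fold lower and did not pass (adjusted p 1 by limma, 0.631 with the block).

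The 24 hpf arrays were then set against the mean of the 1, 3 and 48 hpf groups in the same fit, a contrast that uses no unfed array. The odorant binding protein AE-352 was the gene that stood out. Limma called 1 gene as higher (0.231%) and 0 as lower (0%), with 17 genes at an unadjusted p under 0.05 in either direction. With the block 5 were higher (1.16%) and 20 lower (4.63%).

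AE-352 averaged 2.20 ± 0.31 (SD, 3 arrays) at 24 hpf and 0.746 in unfed glands. Its means at 1, 3 and 48 hpf were 0.14, 0.131 and 0.517. Those at 1 and 3 hpf lay within the range of the limits of the empty spots, 0.102 to 0.242 and 0.0746 to 0.223. It was the 24 hpf group alone that exceeded the unfed mean. The log2 difference of 24 hpf and the mean of the other fed groups was 3.39 ± 0.39 (SE), with an adjusted p of 0.000871 by limma and 9.26e-05 with the block. The cyclophilin AE-296 had means of 0.119, 0.116 and 0.127 at 1, 3 and 48 hpf, also near the limits of the empty spots, and 0.517 at 24 hpf. It was 1.66 higher on the log2 scale (adjusted p 0.414 by limma, 0.000334 with the block). AE-6349 was 1.05 higher than in the other fed groups (0.414 by limma, 0.00781 with the block), whose means were 1.24, 0.676 and 0.407 at 1, 3 and 48 hpf. The serine protease AE-782 differed by 0.76 and the signal peptidase subunit AE-301 by 0.57, both passing with the block alone (0.019).

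Defensin A1 did not stand apart from the other fed groups. Its means were 1.70, 1.96 and 0.494 at 1, 3 and 48 hpf, and its log2 difference from their mean was -0.07 ± 0.28 (SE), with an adjusted p of 1. The glycine rich peptide differed by 0.49 ± 0.25 (SE), with means of 1.65, 1.06 and 1.40, and did not pass either (adjusted p 1 by limma, 0.236 with the block).

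Among the 20 genes lower than in the other fed groups with the block were the mucins AET-6286, AE-329 and AE-922, elongation factors 1 alpha and 2, the heat shock cognate probe AET-381, carboxypeptidase B and the thiol reductase-like AET-330. AET-6286 averaged 0.579, 0.449 and 0.509 at 1, 3 and 48 hpf and 0.142 ± 0.079 (SD) at 24 hpf, a log2 difference of -1.68 (adjusted p 0.158 by limma, 1.56e-06 with the block). Carboxypeptidase B differed by -1.30 (0.313 by limma, 0.019 with the block), with means of 1.73, 1.13 and 1.08 at 1, 3 and 48 hpf and 0.568 at 24 hpf. AE-7210, the peptidoglycan recognition protein, averaged 0.947, 0.343 and 0.396 at 1, 3 and 48 hpf and 0.215 at 24 hpf, a log2 difference of -1.29 (0.689 by limma, 0.000202 with the block). The ferritin heavy chain-like protein (L37082), of the family that stores iron, was named after its values were seen. It averaged 0.479, 0.611 and 0.553 in the other fed groups and 0.279 at 24 hpf, 1.06 lower on the log2 scale with the block alone (0.000783).

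**Figure D5:**
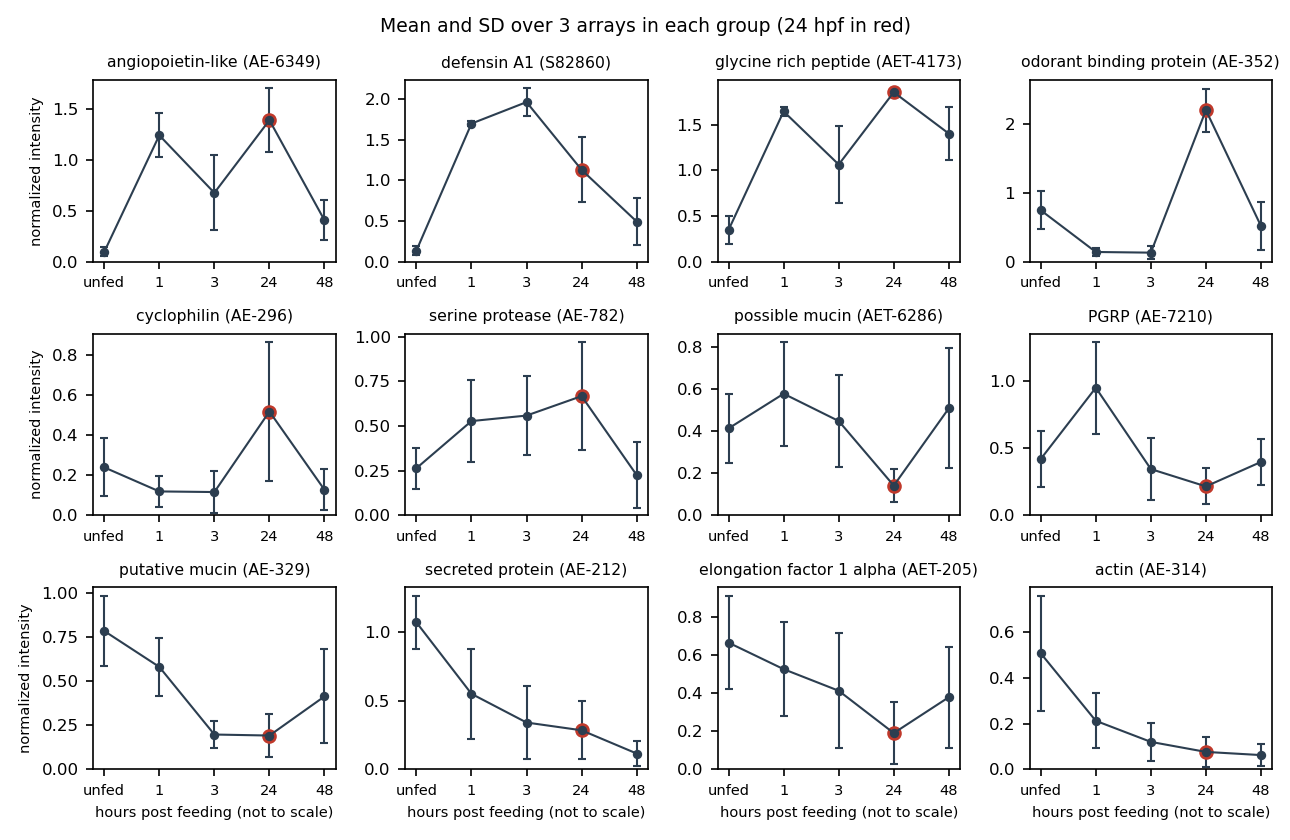
Mean normalized intensity with SD over 3 arrays for 12 genes in unfed glands and at 1, 3, 24 and 48 hpf, with the 24 hpf group ringed in red and the hours not to scale. AE-352 has its highest mean, 2.20, at 24 hpf, and AET-6286 its lowest, 0.142.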

How the data were processed

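The intensity values deposited by the authors come from 15 membrane arrays of oligonucleotide probes read with GEArray Expression Analysis Suite. The values in the authors' report sheet equal, within 0.000129, the raw signal minus the mean of 22 empty spots over that of actin and S5. The methods name ribosomal protein L5 as the reference instead. The score values of the series table, as deposited, are ratios to unfed and served as an alternative. Sheets with the authors' own fold changes and p-values were not used. No array identifier stands in the RefSeq table, so no sequence is shown.

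The probe spotted 3 times was averaged. Log2 values above the floor of 0.1077 (the median of 2 SD of the empty spots) of the 5 groups went into 1 fit by limma (version 3.58.1, R 4.3.3), with Benjamini-Hochberg adjustment over 432 genes, S5 left out. The 218 genes at the floor on every array stayed in the adjustment as not passing. The fitting script was tested on simulated data. Ratios used Python 3.11.15, scipy 1.17.1 and, for figures, matplotlib 3.10.9. The columns carry array numbers 1 to 3, and deviations from the group mean over 138 genes correlated at 0.338 to 0.764 in all 30 same-numbered pairs, so the block was run. No source used here says what a number stands for.

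Genes named include those past limma, or past it with the block and the 2-fold or 0.5-fold limit of the methods. Others came from the 10 highest and 10 lowest ratios and from up to 4 members per list. The reference spots and the genes the study lists for 24 hpf were also drawn on. Of the study's genes, vacuolar ATPase V0 subunit d, inhibitor of apoptosis-1 like protein and acetyl-CoA acetyltransferase, which it lists as lower, were not described. Members and keyword lists were chosen with earlier results of these data known. The number of arrays limits the precision. Alternatives covered the reference, quantile normalization, background, floor, filters, saturated genes, block, samples, the methods' t-test and each array left out.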

Additional observations from a re-analysis of the deposited data

Results flagged for a closer look

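The odorant binding protein AE-352 differed between 24 hpf and the other fed groups by a test of that difference. Its log2 difference of 24 hpf and the mean of 1, 3 and 48 hpf was 3.39 ± 0.39 (SE, 3 against 9 arrays), with an adjusted p of 0.000871 by limma and 9.26e-05 with the array number as a block. Of its 24 hpf arrays 2 were saturated, so the level there is at least the value read. Its 1 and 3 hpf means lay near the limits of the empty spots, so the difference is no exact fold.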

How the results depend on the processing

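The signed calls depend on the reference, the array block and the number of genes tested. With the array number as a block 54 genes passed as higher and 27 as lower, and 25 differed from the other fed groups. With the block on S5 alone 27 were lower. Quantile normalization gave 29 higher and 36 lower, normexp on the local background 2 and 1, and only detected genes 6 lower. The methods' t-test gave 11 lower unadjusted and 1 higher after Benjamini-Hochberg. Chosen after the data were seen, the block with quantile normalization gave 36 higher and 41 lower, with the unfed and 24 hpf arrays alone 45 and 17, and with the array median 6 and 0. The fits with the block and without 1 array were also added then. The array median left 2 genes that differed from the other fed groups. Without 1 array, 3 to 4 genes were higher and 0 to 2 lower by limma: actin without unfed array 1, AEA-562 (adjusted p 0.0353) without unfed array 3, and AE-329 and AY590494 without 24 hpf array 3.

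Counts by ratio moved from 25 higher to 95 with the array median, itself within the limit of the empty spots. They were 16 with the ribosomal probes, 16 with S5 alone, 15 with detected genes only and 68 in the series table. From 73 lower they moved to 43 with the array median, 47 after quantile normalization, 24 with normexp and 24 with detected genes only. Without 1 array they ran from 17 to 33 and from 54 to 109.

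Of 64 genes followed, 949 of 1088 alternative values kept direction and call. A kept call includes a gene that passed in neither fit, and 4 genes passed limma in the main fit. A difference that fell to 0 without a call also counts as kept. Another 10 values, of AEA-233 and AET-4173, lost a call, 106 gained one, and 23 turned sign. With the array median these were AE-289 (0.35), AY949618 (0.36), AY064104 (0.28), AE-284 (0.0939), AET-2915 (0.63) and AE-303 (0.20). With quantile normalization they were AE-209 (-0.0863), AE-260 (-0.0745), AE-216 (-0.0606) and AET-2915 (0.0892), with normexp AE-782 (-0.0562) and AY951940 (-0.14), and with the ribosomal probes AF466586 (-0.0113) and AE-239 (-0.0315). AE-239 was -0.0528 on S5 alone, with or without the block. Without 1 array AE-239 ran from -0.23 to 0.86, AET-2915 from -0.45 to 0.33, AY951940 from -0.10 to 0.77 and AY064104 from -0.93 to 0.12. The cause was not tested. Genes at the empty spots or at the ceiling carry no measured fold, and 1 pool per group gives no estimate of variation between mosquitoes.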
